A study of Mus musculus with 6 samples.

Results

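Sinusoidal endothelial cells line the capillaries of the liver, and 10 genes that mark them are described here across 6 mouse liver libraries. The genes were taken as a named set and found by their symbols: Pecam1, Cdh5, Tek, Kdr and Eng, which endothelium in general expresses, and Stab1, Stab2, Lyve1, Clec4g and Fcgr2b, which in the liver mark the sinusoidal type. All 10 had reads in every library, out of 18388 genes with at least 1 read in the 6 libraries. The study gave JT003, a peptide agonist of the adiponectin receptors AdipoR1 and AdipoR2, to mice in a diet model and in a carbon tetrachloride (CCl4) model of liver injury. Total liver RNA was sequenced on a BGISEQ-500 instrument as 1 library per condition. The methods give 6 mice per group, but the number of mice behind a library is not stated. The mice were males, 6 to 8 weeks old at the start, of the strain C57BL/6J in the methods and C57BL/6 in the labels. In the diet model, the CD library is from the control on standard diet and the HFD library from mice after 16 weeks of high-fat diet. The HFD plus JT003 library is from mice on that high-fat diet that also received the peptide daily at 0.5 mg/kg over 4 weeks. The labels call the HFD library NASH, while the methods keep that word for a diet also deficient in methionine and choline, which no label names. The CCl4 model ran for 6 weeks with intraperitoneal doses every 3 days. Its corn oil library had the vehicle alone at 5 ml/kg, the CCl4 library had CCl4 at 20% in that oil, and the CCl4 plus JT003 library had CCl4 with 3 weeks of daily peptide at 0.5 mg/kg. As a check of the labelled tissue, the hepatocyte gene Alb was the most abundant gene of every library and took between 5.29% and 7.62% of the reads.

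The sinusoidal endothelium has open pores without a diaphragm and almost no basement membrane, so plasma reaches the hepatocytes directly. Its cells clear waste molecules from the blood through scavenger receptors and lectins, and they supply neighbouring cells with growth signals of the Wnt and BMP families. In chronic liver injury they can lose their pores and take on features of ordinary capillaries, a change called capillarization.

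The authors deposited for each gene an expected count, which is an estimate of its reads, and an FPKM value, which adjusts for transcript length and library depth. Total expected counts were 20184578 in CD, 19724526 in HFD, 19849163 in HFD plus JT003, 19409782 in corn oil, 20156865 in CCl4 and 19374255 with CCl4 plus JT003. Values given for single genes are expected counts unless FPKM is named, and ratios between libraries are log2 ratios of scaled counts. A gene was called when its adjusted p was under 0.001 in an exact binomial test and its log2 ratio was at least 1 in size. The words rose and fell are kept for called genes. A condition has 1 library, so nothing checks a result between replicates, and each test compares a pair of libraries and not the conditions. The 95% intervals cover counting error only, and the reads carry no molecular identifiers that would mark copies of the same molecule. Bulk RNA cannot tell fewer cells of a type apart from less RNA per cell. The pair of comparisons within each model share a library: HFD enters both diet comparisons and CCl4 enters both CCl4 comparisons.

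Kdr (gene ID 16542) encodes VEGFR2, the main signalling receptor for VEGF-A on endothelium. It had 1042 counts in CD, 834 in HFD, 1284 in HFD plus JT003, 320 in corn oil, 153 in CCl4 and 287 with CCl4 plus JT003. The level was lowest in CCl4 and highest in HFD plus JT003, with FPKM of 1.37 and 11.67. In CCl4 over corn oil Kdr fell, with a log2 ratio of -1.34 (95% interval -1.64 to -1.07) and an adjusted p of 7.1e-22. The ratio of CCl4 plus JT003 over CCl4 was 0.89 (0.61 to 1.19), which is under the threshold of 1. Diet gave smaller differences of the same pattern, at -0.41 (-0.55 to -0.28) for HFD over CD, while adding JT003 to HFD gave 0.60 (0.47 to 0.73). Further counts, described with the pooled column further on, appear to come from other CCl4 samples. In those samples Kdr over corn oil was at -0.42, and CCl4 plus JT003 over them was at -0.04 (-0.25 to 0.16). None of the intervals between neighbouring libraries in the order of Kdr levels held 0.

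Among 9 VEGF ligands and receptors other than Kdr, 2 were called in CCl4 over corn oil, both lower, where 2.46% of all genes were called lower. Flt1 (gene ID 14254), which encodes the VEGF-A binding receptor VEGFR1, had 230 counts in CD, 215 in HFD, 239 in HFD plus JT003, 84 in corn oil, 44 in CCl4 and 67 with CCl4 plus JT003. Like Kdr, it was lowest in CCl4, and it fell there by 1.18 (-1.78 to -0.68). With the other CCl4 samples its ratio was -0.28 (-0.66 to 0.11) and not called. The co-receptor gene Nrp2 (gene ID 18187) had 548, 494, 661, 199, 92 and 109 counts in the same order of libraries and fell with CCl4 by 1.38 (-1.77 to -1.04), against -0.95 with the other samples. The ligand Vegfa (gene ID 22339) had 1862 counts in CD, 2267 in HFD, 2741 in HFD plus JT003, 2090 in corn oil, 1592 in CCl4 and 2948 with CCl4 plus JT003. It was highest where JT003 had been given with CCl4 and lowest in CCl4 alone. Its ratio was -0.68 (-0.78 to -0.59) for CCl4 over corn oil and 0.88 (0.79 to 0.97) for CCl4 plus JT003 over CCl4. Over those other CCl4 samples Vegfa was still higher with JT003, at 0.60 (0.53 to 0.67). Vegfb (gene ID 22340) lay the other way in the CCl4 library, with 295 counts in corn oil, 514 in CCl4 and 399 with CCl4 plus JT003. The other CCl4 samples held 692 Vegfb counts of 39781108, against 295 of 19409782 in corn oil. With TMM library factors of 0.865 for corn oil and 1.08 for those samples, Vegfb was not higher in them than in corn oil. The higher Vegfb level of the CCl4 library was thus not seen there. Over the 9 genes the median was -0.01 for HFD over CD, 0.13 for HFD plus JT003 over HFD, -0.68 for CCl4 over corn oil and 0.39 for CCl4 plus JT003 over CCl4, and no gene was called in the other comparisons within a model except Nrp2, lower by 1.15 in CCl4 plus JT003 over corn oil.

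Tek (gene ID 21687) encodes TIE2, the receptor for angiopoietins. Its counts were 246 in CD, 207 in HFD, 284 in HFD plus JT003, 130 in corn oil, 65 in CCl4 and 99 with CCl4 plus JT003, the fewest of the 10 genes in all but CD and HFD plus JT003. CCl4 was again the lowest library and HFD plus JT003 the highest. Tek fell with CCl4 by 1.26 (-1.74 to -0.85, adjusted p 9.5e-09) and had a ratio of 0.58 (0.13 to 1.07) for CCl4 plus JT003 over CCl4. In the diet model the ratios were -0.34 (-0.61 to -0.07) and then 0.43 (0.17 to 0.70), neither past the test. Of the 4 genes listed with Tek, the phosphatase gene Ptprb (gene ID 19263), whose product acts on TIE2, was called in both CCl4 comparisons. It had 1553 counts in CD, 1560 in HFD, 1866 in HFD plus JT003, 721 in corn oil, 335 in CCl4 and 680 with CCl4 plus JT003. Ptprb was lowest in CCl4, where it fell by 1.39 (-1.59 to -1.21), and it rose by 1.01 (0.82 to 1.20) in CCl4 plus JT003. Against the other CCl4 samples that ratio of Ptprb was 0.17 (0.04 to 0.31). Tie1 (gene ID 21846), the related receptor, ranged from 150 counts in CCl4 to 347 in HFD plus JT003 and was not called. The ligands Angpt1 and Angpt2 had between 7 and 27 counts in every library, and neither was called. The median of the 4 genes was 0.55 for HFD over CD, -0.03 for HFD plus JT003 over HFD, -0.47 for CCl4 over corn oil and 0.81 for CCl4 plus JT003 over CCl4.

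Eng (gene ID 13805) encodes endoglin, a co-receptor for BMP9 and BMP10. It had 1574 counts in CD, 1461 in HFD, 1822 in HFD plus JT003, 1111 in corn oil, 759 in CCl4 and 855 with CCl4 plus JT003. By FPKM it was the most abundant of the general endothelial markers in every library, from 10.79 in CCl4 to 26.37 in HFD plus JT003. The ratio was -0.84 (-0.97 to -0.70) for CCl4 over corn oil, under the fold threshold, and 0.16 (0.02 to 0.30) for CCl4 plus JT003 over CCl4. Against corn oil, CCl4 plus JT003 stood at -0.68 (-0.81 to -0.55). In the diet model Eng had ratios of -0.20 (-0.30 to -0.10) for HFD over CD and, with JT003 added to HFD, of 0.30 (0.20 to 0.40).

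The list of endoglin and BMP signalling held 11 genes, and 2 targets of BMP signalling were called in both diet comparisons. Id1 (gene ID 15901) had 204 counts in CD, 51 in HFD, 157 in HFD plus JT003, 216 in corn oil, 498 in CCl4 and 455 with CCl4 plus JT003. Id3 (gene ID 15903) had 1681, 472, 1088, 1099, 1508 and 2116 counts in that order. Both were lowest in HFD, unlike any of the 10 endothelial markers. Id1 fell with HFD by 2.05 (-2.56 to -1.64) and rose with JT003 by 1.56 (1.14 to 2.08), and Id3 fell by 1.92 (-2.07 to -1.78) and rose by 1.18 (1.03 to 1.34). Hepatocytes also express both genes. Bmp2 (gene ID 12156), a ligand that sinusoidal endothelium makes, had 408 counts in CD, 414 in HFD, 507 in HFD plus JT003, 265 in corn oil, 131 in CCl4 and 258 with CCl4 plus JT003. It followed the order of Kdr at the low end and fell with CCl4 by 1.29 (-1.62 to -1.0). With the other CCl4 samples the ratio of Bmp2 was -0.63 (-0.85 to -0.40) and not called. Gdf2 (gene ID 12165), which encodes BMP9, a ligand of endoglin, was not called in these comparisons and had from 207 counts in corn oil to 449 in HFD plus JT003. The 11 genes had medians of -0.08 for HFD over CD, 0.25 for HFD plus JT003 over HFD, -0.14 for CCl4 over corn oil and 0.36 for CCl4 plus JT003 over CCl4.

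Pecam1 (gene ID 18613) and Cdh5 (gene ID 12562) encode CD31 and VE-cadherin, adhesion proteins of endothelial junctions. Pecam1 had 404 counts in CD, 397 in HFD, 424 in HFD plus JT003, 209 in corn oil, 144 in CCl4 and 178 with CCl4 plus JT003. The 3 diet libraries lay close together and above all 3 libraries of the CCl4 model. Its ratio was -0.82 (-1.14 to -0.51) for CCl4 over corn oil and 0.29 (-0.03 to 0.62) for CCl4 plus JT003 over CCl4, the latter with an interval that holds 0. Cdh5 had 595 counts in CD, 613 in HFD, 720 in HFD plus JT003, 218 in corn oil, 183 in CCl4 and 235 with CCl4 plus JT003. The same separation of the models was wider for Cdh5. Its ratio of CCl4 over corn oil, at -0.54 (-0.83 to -0.25), was the smallest of the 5 general markers, and that of CCl4 plus JT003 over CCl4 was 0.35 (0.07 to 0.64). For HFD over CD both genes had intervals that hold 0, at -0.12 (-0.32 to 0.09) for Pecam1 and -0.05 (-0.21 to 0.12) for Cdh5. In the JT003 library over HFD, Cdh5 had a ratio of 0.21 (0.05 to 0.37) and Pecam1 of 0.07 (-0.13 to 0.27).

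**Figure D1:**
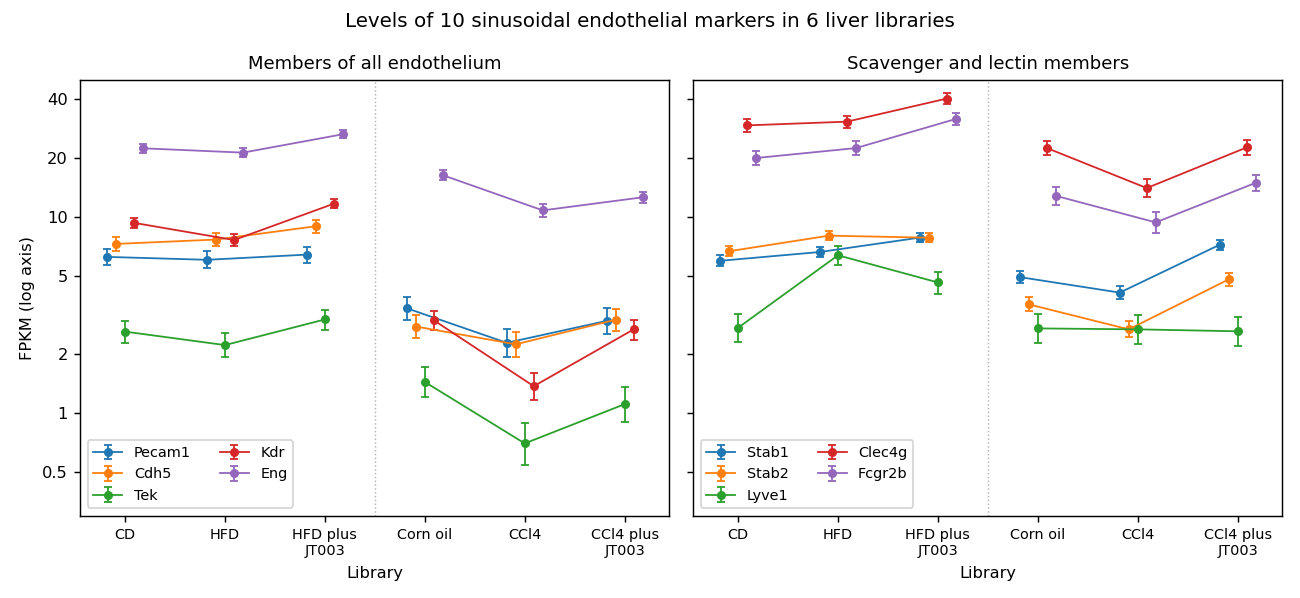
Deposited FPKM on a log axis of the 5 general endothelial markers (left) and the 5 scavenger and lectin markers (right) in 6 liver libraries. Points are libraries, bars are 95% counting intervals and lines join the libraries of a model; CCl4 is the lowest library for 9 of the 10 genes by scaled counts, Lyve1 being the exception.

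Stab1 and Stab2 encode stabilin-1 and stabilin-2, large scavenger receptors, of which stabilin-2 takes up hyaluronan. Stab2 (gene ID 192188) had 1117 counts in CD, 1312 in HFD, 1287 in HFD plus JT003, 578 in corn oil, 446 in CCl4 and 772 with CCl4 plus JT003. All 3 diet libraries were above the 3 of the CCl4 model. The ratio was -0.66 (-0.84 to -0.48) for CCl4 over corn oil and 0.78 (0.61 to 0.95) for CCl4 plus JT003 over CCl4. Stab1 (gene ID 192187), which macrophages can also express, had 978 counts in CD, 1062 in HFD, 1265 in HFD plus JT003, 779 in corn oil, 673 in CCl4 and 1137 with CCl4 plus JT003. Its models overlapped, as CCl4 plus JT003 lay above CD by FPKM, with 7.21 and 5.97. Stab1 had ratios of -0.50 (-0.65 to -0.35) for CCl4 over corn oil and 0.74 (0.61 to 0.89) for CCl4 plus JT003 over CCl4. Against corn oil, CCl4 plus JT003 stood at 0.25 (0.11 to 0.38) for Stab1 and at 0.12 (-0.04 to 0.28) for Stab2 in the TMM scaling. With total counts, where the median of all genes was higher too, these were 0.55 (0.42 to 0.68) and 0.42 (0.26 to 0.58). In the diet model the ratios for HFD over CD were 0.03 (-0.10 to 0.15) for Stab1 and 0.14 (0.02 to 0.26) for Stab2. JT003 over HFD gave 0.23 (0.11 to 0.35) for Stab1 and -0.05 (-0.16 to 0.06) for Stab2.

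Lyve1 (gene ID 114332) encodes a hyaluronan receptor of sinusoidal and lymphatic endothelium, found on some macrophages as well. It had 144 counts in CD, 330 in HFD, 241 in HFD plus JT003, 138 in corn oil, 141 in CCl4 and 133 with CCl4 plus JT003. HFD stood out as the highest library, HFD plus JT003 followed, and the other 4 lay close together. Lyve1 rose in HFD over CD by 1.09 (0.82 to 1.40), which is 2.14-fold, with an adjusted p of 1.9e-14. In HFD plus JT003 over HFD its ratio was -0.47 (-0.72 to -0.23), and HFD plus JT003 remained at 0.62 (0.33 to 0.94) over CD. CCl4 over corn oil gave -0.25 (-0.61 to 0.09) and CCl4 plus JT003 over CCl4 gave -0.09 (-0.45 to 0.26), so that a difference was not detectable at this depth.

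Clec4g and Fcgr2b encode LSECtin, a C-type lectin, and the inhibitory Fc gamma receptor IIb, which takes up immune complexes in the sinusoids. Clec4g (gene ID 75863) had 725 counts in CD, 741 in HFD, 977 in HFD plus JT003, 536 in corn oil, 347 in CCl4 and 538 with CCl4 plus JT003. By FPKM it was the most abundant of the 10 genes in every library, with 29.26, 30.57, 40.10, 22.43, 14.02 and 22.59. Fcgr2b (gene ID 14130) had 571 counts in CD, 629 in HFD, 883 in HFD plus JT003, 352 in corn oil, 267 in CCl4 and 409 with CCl4 plus JT003. In each model the JT003 library was above the injured library for both genes. The ratio of CCl4 over corn oil was -0.91 (-1.11 to -0.72) for Clec4g and -0.68 (-0.92 to -0.45) for Fcgr2b. For CCl4 plus JT003 over CCl4 the ratios were 0.62 (0.42 to 0.82) and 0.60 (0.38 to 0.83). HFD plus JT003 over HFD gave 0.38 (0.24 to 0.52) for Clec4g and 0.47 (0.32 to 0.62) for Fcgr2b, after ratios of HFD over CD of -0.06 (-0.21 to 0.09) and 0.05 (-0.12 to 0.21). Fcgr2b is close in sequence to other Fc receptor genes and is expressed by B cells and macrophages, so its value is uncertain as a measure of endothelium.

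Over all 10 genes, HFD over CD had 1 call, Lyve1, where 5.45% of 16973 genes were called and 2.96% were called higher. The median log2 ratio was -0.05, with 4 genes above 0 and 6 below, beside a median of 0.00 over all genes. HFD plus JT003 over HFD had no call among the 10 (0 of 10, with 1.67% of 17094 genes called). Here 8 of 10 ratios were above 0, as were 48.6% over all genes, with a median of 0.26 beside -0.01 over all genes. The interval lay above 0 for 7 of the 10, for 16.3% of all genes and for 23.1% of genes with at least 50 counts, and below 0 for Lyve1. With the fold threshold lowered to a log2 ratio of 0.5, Kdr was past the test and higher, as were 2.73% of all genes. HFD plus JT003 over CD had 0 of 10 called (5.98% of 17015 genes), with a median of 0.17 and 9 genes above 0, and 2 of 10 past the lower threshold, Lyve1 and Fcgr2b, beside 7.68% of all genes higher.

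CCl4 over corn oil had 2 of 10 called, Tek and Kdr, both lower, where 7.26% of 17236 genes were called and 2.46% were called lower. All 10 ratios were below 0, as were 49.6% over all genes, with a median of -0.75 beside 0.00, and from -1.34 for Kdr to -0.25 for Lyve1. For 9 of the 10, all but Lyve1, the interval lay below 0, as it did for 20.5% of all genes. Past the lower threshold of 0.5 were 8 of 10, all lower, and 7.06% of all genes. Among genes with at least 50 counts in either library, which all 10 are, 3.26% were called lower, 10.4% were past the lower threshold and 28.6% had an interval below 0. CCl4 plus JT003 over CCl4 had 0 of 10 called (4.45% of 17393 genes). In this comparison 9 of 10 ratios were above 0, as were 49.8% over all genes, with a median of 0.59 beside 0.00 over all genes, and 8 intervals lay above 0, as did 19.4% over all genes. Past the lower threshold were 5 of 10, all higher, and 5.85% of all genes in that direction. For genes with at least 50 counts those shares were 26.3% and 8.68%. CCl4 plus JT003 over corn oil had 0 of 10 called (5.05% of 17340 genes), with a median of -0.32, 2 genes above 0 and 8 below. Eng was past the lower threshold there, at -0.68, as were 5.39% of all genes.

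Scaling by total counts instead of TMM factors put the median of all genes at 0.12 for HFD over CD, 0.23 for CCl4 over corn oil, 0.13 for HFD plus JT003 over CD and 0.32 for CCl4 plus JT003 over corn oil. The ratios of the 10 genes are read relative to those shifts. With total counts the signs of Pecam1, Cdh5 and Clec4g for HFD over CD turned positive, at 0.0080, 0.076 and 0.065, all with intervals around 0 in the TMM scaling. In HFD plus JT003 over CD the sign of Pecam1 turned, at 0.09. In CCl4 plus JT003 over corn oil those of Cdh5, Clec4g and Fcgr2b turned, at 0.11, 0.0080 and 0.22, so that 5 genes lay above 0. No sign turned in HFD plus JT003 over HFD, CCl4 over corn oil or CCl4 plus JT003 over CCl4.

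**Figure D2:**
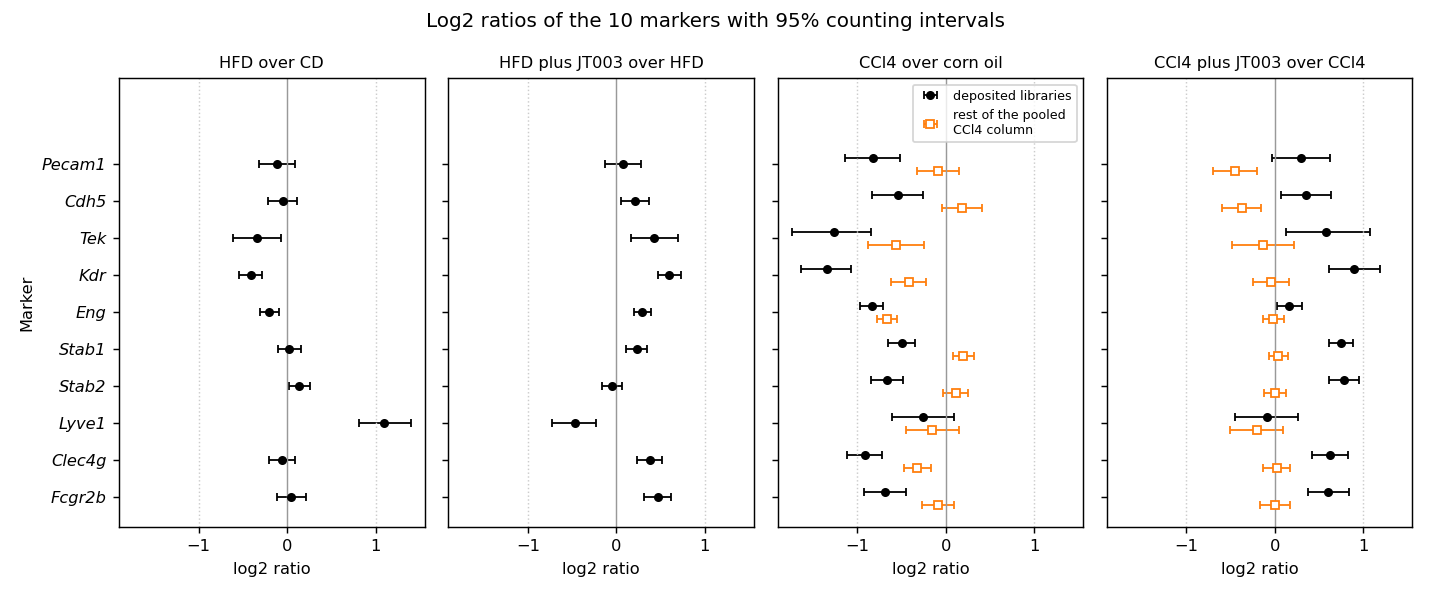
Log2 ratios (horizontal axis) of the 10 markers in 4 comparisons, with 95% counting intervals as bars and dotted lines at ratios of 1 and -1. Black circles use the deposited libraries, and open squares put the rest of the pooled CCl4 column in place of the CCl4 library, which moves the ratios toward 0 in CCl4 over corn oil.

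The CCl4 library decides much of the CCl4 results. A table deposited by the authors holds a CCl4 column that sums to 2.97 times the CCl4 library and appears to pool several libraries. Taking that library away leaves 39781108 counts, which are taken to be of other CCl4 samples and called the rest here. The rest held 504 counts of Pecam1, 633 of Cdh5, 225 of Tek, 613 of Kdr and 1797 of Eng. For the scavenger group it held 2291 of Stab1, 1599 of Stab2, 318 of Lyve1, 1098 of Clec4g and 847 of Fcgr2b. Scaled, the rest was above the CCl4 library for all 10 genes, with a median log2 ratio of 0.71 beside 0.02 over all genes. No gene of the 10 was called in that comparison (0 of 10, with 1.62% of 17813 genes called), while 7 of 10 were past a log2 ratio of 0.5 and higher, as were 4.04% of all genes. With total counts Kdr was called as well, at 1.02 (0.76 to 1.29).

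With the rest in place of the CCl4 library, the median for CCl4 over corn oil was -0.12 beside 0.05 over all genes, and 0 of 10 were called (9.65% of 17810 genes). Kdr then had a ratio of -0.42 (-0.61 to -0.22), Tek of -0.56 (-0.88 to -0.24), Eng of -0.66 (-0.77 to -0.55) and Clec4g of -0.32 (-0.47 to -0.17). These were the 4 genes with intervals below 0. Stab1, at 0.20 (0.08 to 0.32), had an interval above 0, and Stab2 and Cdh5 had ratios of 0.11 and 0.18 with intervals that held 0. CCl4 plus JT003 over the rest had a median of -0.03 beside -0.02 over all genes, with 0 of 10 called (4.58% of 17897 genes). No interval lay above 0 there, and those of Pecam1, at -0.45 (-0.71 to -0.20), and Cdh5, at -0.38 (-0.60 to -0.16), lay below. By sign, 4 of the 10 ratios were above 0 there, against 9 over the CCl4 library, and by interval 0 were, against 8. The ratios of Kdr, Tek, Eng and Clec4g over corn oil had intervals below 0 with both. The samples in the rest are not named by the authors.

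The difference between the models was tested gene by gene, as CCl4 over corn oil minus HFD over CD, with an exact conditional test on the 4 counts. Past an adjusted p of 0.001 were 8 of 10 genes, all lower in the CCl4 model, where 23.1% of 17893 genes were past it in either direction. The differences ran from -1.35 (-1.82 to -0.90) for Lyve1 to -0.53 (-0.72 to -0.33) for Stab1. Tek, at -0.92 (-1.48 to -0.42), and Cdh5, at -0.49 (-0.83 to -0.16), were not past it. With the rest in place of the CCl4 library, 2 of 10 were past it, Lyve1 at -1.24 and Eng at -0.46, where 22.2% of 18218 genes were. The response to JT003 differed between the models for Stab1, by 0.51 (0.33 to 0.70), and for Stab2, by 0.83 (0.63 to 1.04), both higher in the CCl4 model. These were 2 of 10, where 16.2% of 18046 genes were past the test, a share near that of the markers. With the rest in place of the CCl4 library neither gene was past it, at -0.19 (-0.35 to -0.03) for Stab1 and 0.05 (-0.12 to 0.22) for Stab2. In that case 4 others were, all lower in the CCl4 model, namely Kdr at -0.64, Cdh5 at -0.59, Fcgr2b at -0.46 and Eng at -0.32, where 16.8% of 18342 genes were past it. The models also differ in diet, vehicle and duration.

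The control libraries of the models differed as well, in a comparison added after the data were seen. In corn oil over CD, Cdh5 fell by 1.29 (-1.53 to -1.07) and Kdr by 1.55 (-1.74 to -1.37). They were the 2 of 10 called, where 5.52% of 17020 genes were called and 3.28% were called lower. Another 7 genes had intervals below 0, as did 24.0% over all genes, among them Stab2 at -0.80 (-0.95 to -0.65), Pecam1 at -0.80 (-1.05 to -0.56) and Tek at -0.76 (-1.09 to -0.46). Lyve1, at 0.09 (-0.26 to 0.43), was the only one above 0, and with total counts its ratio lay just below 0. The median was -0.65 beside 0.04 over all genes, and -0.75 beside -0.05 with total counts. For Cdh5 the difference between the controls was thus larger than any within a model. For Kdr it was larger in value only. Its interval overlapped that of CCl4 over corn oil, at -1.38 (-1.67 to -1.10) with all 6 libraries scaled together. Vehicle and age differ between the controls and cannot be told apart, and the diet of the corn oil mice is not stated.

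With all 6 libraries scaled together, HFD plus JT003 was the highest library for 7 of the 10 genes, HFD for Stab2 and Lyve1, and CD for Pecam1. CCl4 was the lowest for 9 and CCl4 plus JT003 for Lyve1. Of 50 pairs of neighbouring libraries in these orders, 18 had an interval that held 0. For Pecam1 those were the 3 diet libraries among themselves, and CCl4 plus JT003 with CCl4. For Cdh5 they were CD with HFD, and corn oil with CCl4 plus JT003. HFD plus JT003 and CD were not told apart for Tek and Eng, nor CD and HFD for Clec4g. For Stab1 the neighbours CCl4 plus JT003, HFD and CD were not separated. For Stab2, HFD plus JT003 was not separated from HFD or from CD, although HFD and CD were, and CCl4 plus JT003 was not separated from corn oil. For Lyve1 none of the neighbours in the order corn oil, CD, CCl4 and CCl4 plus JT003 were separated. For Fcgr2b, HFD and CD were alike within counting error, and so were corn oil and CCl4 plus JT003.

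The balance of scavenger and lectin markers against general endothelial markers was taken as the ratio of their summed counts, which library scaling does not affect. It was 0.916 (95% interval 0.874 to 0.959) in CD, 1.16 (1.11 to 1.21) in HFD and 1.03 (0.985 to 1.07) in HFD plus JT003. In the CCl4 model it was 1.20 (1.13 to 1.27) in corn oil, 1.44 (1.34 to 1.54) in CCl4 and 1.81 (1.70 to 1.92) with CCl4 plus JT003. The intervals did not overlap within either model. The rest of the pooled column had 1.63 (1.57 to 1.70), between CCl4 and CCl4 plus JT003. As a log2 change, the ratio moved by 0.34 in HFD over CD, -0.18 in HFD plus JT003 over HFD, 0.26 in CCl4 over corn oil and 0.33 with CCl4 plus JT003 over CCl4. With sums of FPKM the second of these was -0.02, and with means of log2 ratios the last was 0.08. The ratio of FPKM sums was 1.73 in corn oil and 1.89 in CCl4, a smaller change than with counts.

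Among the reads of the 10 genes, Kdr took 14.1% (13.3 to 14.9) in CD, 11% (10.3 to 11.7) in HFD and 14.0% (13.3 to 14.7) in HFD plus JT003. In the CCl4 model it took 7.32% (6.57 to 8.13) in corn oil, 4.81% (4.10 to 5.62) in CCl4 and 6.18% (5.51 to 6.91) with CCl4 plus JT003. Stab1 took 13.2% (12.5 to 14.0) in CD, 14.0% (13.2 to 14.8) in HFD and 13.8% (13.1 to 14.5) in HFD plus JT003. Its share was 17.8% (16.7 to 19.0) in corn oil, 21.2% (19.8 to 22.6) in CCl4 and 24.5% (23.3 to 25.8) with CCl4 plus JT003. The shares of the markers thus did not stay constant between libraries. Summed over the 10 genes, FPKM was 112.39 in CD, 118.79 in HFD, 148.37 in HFD plus JT003, 73.34 in corn oil, 50.22 in CCl4 and 74.42 with CCl4 plus JT003.

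**Figure D3:**
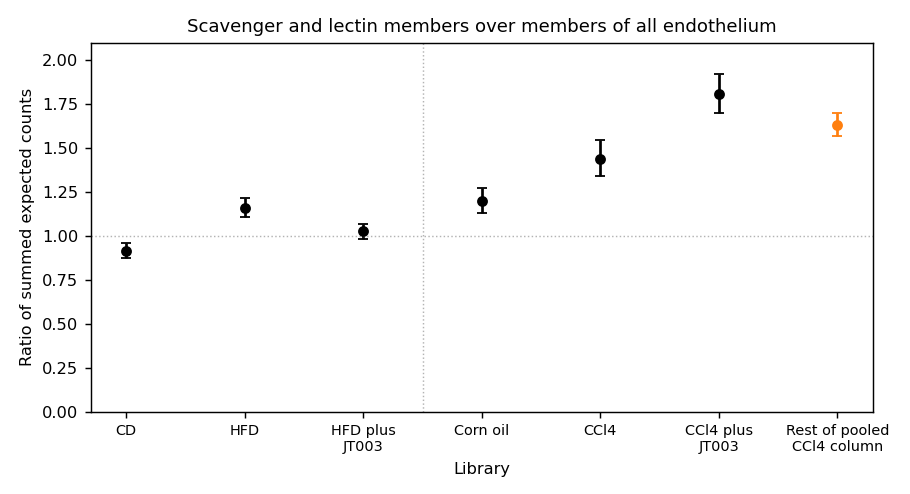
Ratio of the summed expected counts of 5 scavenger and lectin markers to those of 5 general endothelial markers in each library, with 95% counting intervals as bars. The ratio was lowest in CD, at 0.916, and highest with CCl4 plus JT003, at 1.81, and the orange point is the rest of the pooled CCl4 column.

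Other endothelial genes were read from lists. Of 10 further sinusoidal genes, 9 were below 0 in CCl4 over corn oil, with a median of -0.67. Oit3, a protein of sinusoidal cells, was the 1 called, from 296 to 126 counts, and fell by 1.5 (-1.83 to -1.21). With the rest Oit3 was at -0.59 (-0.80 to -0.38) and not called. Relative to total counts, the summed counts of the 10 genes were lower in the CCl4 library than in corn oil. In the rest that sum, which includes Cd36, was higher than in corn oil. TMM factors were not applied to these sums. A median of the list with the rest is not given, so its medians in the CCl4 model hold for the CCl4 library only. In CCl4 plus JT003 over CCl4, 8 of 10 were above 0, with a median of 0.35, and the lectin gene Clec1b rose by 1.20 (0.82 to 1.62), from 76 to 178 counts. Over the rest Clec1b was at 0.43 (0.15 to 0.71) and not called. HFD over CD had a median of -0.10 with 1 call, the fatty acid transporter Cd36, which rose by 2.16 (2.03 to 2.30) and is expressed by hepatocytes too. Of 19 further general endothelial genes, 17 were below 0 in CCl4 over corn oil, with a median of -0.56, and the receptor genes Robo4, Adgrl4 and Adgrf5 fell by 1.15, 1.36 and 1.32. With the rest these receptor genes were at -0.88, -0.17 and -0.88, and none was called. Relative to total counts, the sum of the 19 genes was lower in the CCl4 library than in corn oil, but higher in the rest. TMM factors were again not applied to the sums. For this list too, a median with the rest is not given. In CCl4 plus JT003 over CCl4, 17 of 19 were above 0, with a median of 0.40, and Adgrl4 rose by 1.36 (0.88 to 1.95) and Adgrf5 by 1.10 (0.89 to 1.33). Over the rest neither was called, at 0.17 (-0.17 to 0.51) and 0.65 (0.49 to 0.82). HFD over CD had a median of -0.03 over the 19, and HFD plus JT003 over HFD had 0.14, with no call in either.

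Genes of endothelium near the central vein had a low median in CCl4 over corn oil. All 6 were below 0, with a median of -1.35, and 3 were called, where 2.46% of all genes were called lower. The Wnt pathway genes Rspo3 and Wnt9b fell by 1.56 (-2.19 to -1.07) and 1.95 (-3.19 to -1.18), from 98 to 39 and from 43 to 12 counts. Cdh13 fell by 1.57 (-2.67 to -0.82), from 40 to 15 counts. With the rest, Rspo3 and Wnt9b were not called, at -0.71 (-1.10 to -0.34) and -0.76 (-1.36 to -0.19). The summed counts of the list were 19.2 per 1e6 reads in corn oil, 10.4 in CCl4 and 23.9 in the rest. Without Thbd, at 444 counts in the rest, the sum was lower in the rest than in corn oil. These sums are relative to total counts, and TMM factors were not applied to them. Kit (gene ID 16590), a receptor tyrosine kinase, rose with JT003 in both models, by 1.27 (0.97 to 1.61) over HFD and by 1.03 (0.55 to 1.60) over CCl4. With the rest in place of the CCl4 library, Kit over the rest was 0.25 (-0.13 to 0.62), and Thbd, which had 72 counts in CCl4 and 444 in the rest, rose by 1.05 (0.72 to 1.42) over corn oil. The median of the 6 was -0.32 for HFD over CD. Of 10 periportal and arterial genes, the median was -0.09 in CCl4 over corn oil with no call, and Sox17 rose in CCl4 plus JT003 over CCl4 by 1.21 (0.67 to 1.86), from 35 to 84 counts.

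Of 13 genes of continuous or capillarized endothelium, 12 had reads in HFD or CD. All 12 were above 0 in HFD over CD, with a median of 0.39 beside -0.0004 over all genes. Esm1 rose there by 1.89 (1.10 to 3.16) and fell in HFD plus JT003 by 2.69 (-4.57 to -1.83), on 11 counts in CD, 49 in HFD and 6 in HFD plus JT003. In HFD plus JT003 over HFD, 9 of 12 were below 0, with a median of -0.52. The list split in CCl4 over corn oil, with 6 above and 6 below 0 and a median of 0.16. Vwf and Selp fell by 1.86 (-2.37 to -1.45) and 1.76 (-2.85 to -1.04), while the basement membrane gene Col4a2 and the adhesion gene Vcam1, which stellate cells also express, rose by 1.09 each. With the rest they rose by 1.44 (1.27 to 1.62) and 2.11 (1.83 to 2.42). For Vwf the rest held 442 counts and the CCl4 library 54, and its ratio over corn oil with the rest was 0.07 (-0.19 to 0.33). Selp was still called lower with the rest, at -1.03 (-1.66 to -0.48). Plvap, the protein of the pore diaphragm and the most abundant of the list by FPKM, had 14.01 in corn oil, 24.99 in CCl4 and 25.32 with CCl4 plus JT003. Of 7 transcription factors of sinusoidal endothelium, the median was -0.29 in HFD over CD and 0.33 in CCl4 over corn oil with no call in either. Tfec rose by 1.74 (0.86 to 3.19) in CCl4 plus JT003 over CCl4, on 9 and 35 counts, but the rest held 72 counts and the ratio over it was 0.0098 (-0.62 to 0.61). The 3 lymphatic genes had 0 to 5 counts each in CD and a summed FPKM of 4.82 in corn oil, 1.65 in CCl4 and 4.18 with CCl4 plus JT003. Of these Ccl21a fell with CCl4 by 2.04 and rose with JT003 by 1.57. With the rest neither ratio of Ccl21a was called, at -0.97 (-1.47 to -0.50) and 0.49 (-0.01 to 1.00). Of the 16 genes of the endothelial and signalling lists called in CCl4 over corn oil, 4 were also called with the rest, Cdh13 and Selp lower and Col4a2 and Vcam1 higher. Of the 8 called in CCl4 plus JT003 over CCl4, 0 were called over the rest, with Sox17 just under the fold threshold at 0.98 (0.55 to 1.45).

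Markers of other cell types moved between the same libraries, and their part in the results was not tested. The 11 Kupffer cell and macrophage genes, with C1qa the most abundant on average, had a summed FPKM of 228.17 in CD, 240.21 in HFD, 311.56 in HFD plus JT003, 61.01 in corn oil, 185.05 in CCl4 and 282.60 with CCl4 plus JT003. In CCl4 over corn oil 10 of 11 were above 0 and 8 were called higher, with a median of 1.52, against the direction of the endothelial genes. Over all genes, 7.26% were called there in either direction. The rest held 535.9 counts of these genes per 1e6 reads, against 273.3 in the CCl4 library, so they were also higher in the rest. In HFD plus JT003 over HFD all 11 were above 0, with a median of 0.53. In corn oil over CD all 11 were called lower, where 3.28% of all genes were. The 9 stellate cell and fibroblast genes, Dcn the most abundant, summed to 75.26, 120.38, 110.27, 77.58, 102.18 and 106.17 in the same order of libraries, with medians of 0.44 for HFD over CD and 0.58 for CCl4 over corn oil. Dcn made up much of that sum, and single genes went other ways. Dcn was at -0.65 in CCl4 over corn oil and 0.56 in CCl4 plus JT003 over CCl4. The collagen gene Col1a1 rose by 3.13 and then fell by 1.51, and was called in both with the rest too, at 3.27 and -1.66. The 6 hepatocyte genes, Alb the most abundant, summed to between 44744.03 in CD and 63066.03 in CCl4, with a median of -0.09 in CCl4 over corn oil. The 5 mitosis genes, Cdc20 the most abundant, summed to 0.73 in CD, 1.30 in corn oil, 63.37 in CCl4 and 4.68 with CCl4 plus JT003, and all 5 rose with CCl4, with a median of 5.0. No gene of these lists was at 0 in any library.

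The remaining lists were of low level. The 4 bile duct genes, Sox9 the most abundant, summed to 2.27 in CD, 5.64 in corn oil, 13.92 in CCl4 and 10.66 with CCl4 plus JT003. In CCl4 over corn oil 3 of 4 were called higher, where 7.26% of all genes were called in either direction. With the rest Epcam was still called, at 1.09, while Krt7 and Sox9 were not, at 0.50 and 0.92. The 4 B cell genes, Cd79a the most abundant, ranged in sum from 1.15 in HFD to 3.28 in CCl4 plus JT003, with no call within a model. The 3 platelet genes, Pf4 the most abundant, ranged from 1.28 in CD to 4.27 in CCl4, again with no call within a model.

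**Figure D4:**
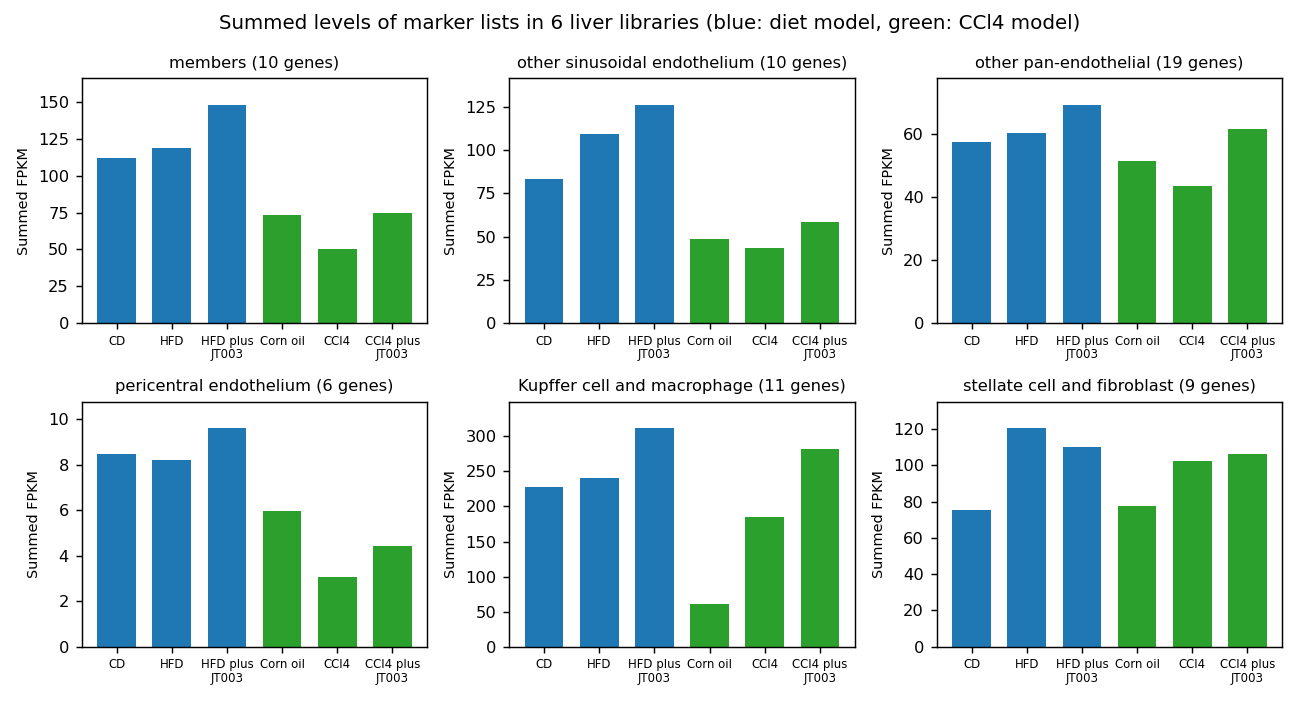
Summed FPKM of the 10 markers and of 5 other gene lists in each library, as bars from 0, blue for the diet model and green for the CCl4 model. The markers, the further endothelial lists and the pericentral genes were lowest in CCl4, while the Kupffer cell and macrophage genes were lowest in corn oil.

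The genes whose profile over the 6 libraries was nearest to the mean of the 10 markers were found by the root mean square difference of centred log2 values among 9366 genes with a mean of at least 100 counts. They were Aqp1 at 0.0866, Tgfbr3 at 0.0939, Atp2b4 at 0.10, Flt4 at 0.108 and Mmrn2 at 0.120, where the median over all genes was 0.645. Aqp1 (gene ID 11826) had FPKM of 29.51 in CD, 28.28 in HFD, 40.70 in HFD plus JT003, 17.14 in corn oil, 11.86 in CCl4 and 17.36 with CCl4 plus JT003. The shape is that of most of the markers, highest in HFD plus JT003 and lowest in CCl4. The markers themselves lay from 0.118 for Fcgr2b and 0.120 for Pecam1 to 0.395 for Stab1, 0.417 for Lyve1 and 0.538 for Kdr from their own mean. The 6 libraries are few points for such a measure.

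Promoters of 7 of the 10 genes were in a RefSeq table of mouse promoters on build GRCm38.p6, while the counts are on mm9. Pecam1, Cdh5 and Lyve1 were not in it. Each window runs from 250 bases before to 50 bases after the gene start. An ETS-type motif, AGGAAG, was searched on both strands and found in 35.4% of 32851 promoters and in 4 of the 7 markers, Eng, Stab1, Stab2 and Clec4g. A GATA-type motif, AGATAA, was found in 11.2% of promoters and in 1 of the 7, Tek. Shown are Kdr and Tek, the genes called with CCl4, and Stab2 and Clec4g, a scavenger receptor and the most abundant lectin of the set. Capitals mark the motifs, on either strand, and in Clec4g a pair of the 3 matches overlap. Kdr, at chr5:75978406-75978705 on the minus strand, holds neither motif in this window, and Tek lies at chr4:94739039-94739338 on the plus strand, Stab2 at chr10:87007893-87008192 on the minus strand and Clec4g at chr8:3720602-3720901 on the minus strand. A match is a description of the letters only.
Kdr: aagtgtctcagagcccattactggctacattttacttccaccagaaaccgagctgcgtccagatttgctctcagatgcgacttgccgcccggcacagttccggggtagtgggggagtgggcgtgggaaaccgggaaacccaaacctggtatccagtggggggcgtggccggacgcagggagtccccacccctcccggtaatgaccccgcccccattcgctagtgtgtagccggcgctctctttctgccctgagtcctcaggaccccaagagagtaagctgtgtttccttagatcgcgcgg
Tek: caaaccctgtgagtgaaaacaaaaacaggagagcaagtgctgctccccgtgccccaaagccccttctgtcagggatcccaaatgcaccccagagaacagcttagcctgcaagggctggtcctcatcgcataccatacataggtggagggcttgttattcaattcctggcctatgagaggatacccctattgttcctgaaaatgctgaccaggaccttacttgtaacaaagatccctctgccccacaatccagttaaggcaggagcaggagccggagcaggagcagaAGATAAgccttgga
Stab2: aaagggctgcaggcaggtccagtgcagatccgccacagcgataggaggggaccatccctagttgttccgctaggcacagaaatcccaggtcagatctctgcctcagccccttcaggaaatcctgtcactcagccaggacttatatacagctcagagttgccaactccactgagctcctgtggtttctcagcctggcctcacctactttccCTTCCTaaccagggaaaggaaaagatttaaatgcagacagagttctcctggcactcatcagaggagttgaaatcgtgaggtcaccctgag
Clec4g: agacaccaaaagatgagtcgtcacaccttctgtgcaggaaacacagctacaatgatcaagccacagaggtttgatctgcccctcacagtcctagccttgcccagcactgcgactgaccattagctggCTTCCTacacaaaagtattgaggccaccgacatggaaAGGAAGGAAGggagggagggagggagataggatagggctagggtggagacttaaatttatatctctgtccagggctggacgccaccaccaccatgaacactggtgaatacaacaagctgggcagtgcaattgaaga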

How the data were processed

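Total liver RNA of 6 conditions was sequenced, 1 library each, and the submitters' processing notes name HISAT, Bowtie2, RSEM and the mm9 genome. The gene tables deposited by the authors give an expected count and an FPKM for each of 18804 gene IDs. Library totals ran from 19374255 to 20184578 counts. The comparison tables hold folds and p-values of the authors' comparisons, which were not used, and 7 expression columns were left unused. One of those tables has a CCl4 column with 2.97 times the counts of the CCl4 library, and the rest after removing that library served as an alternative.

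Expected counts were made whole, and library sizes were adjusted with TMM factors over the 3 libraries of a model (edgeR 4.0.16, R 4.3.3). Each pair of libraries was compared by an exact binomial test on the share of a gene's reads, with Benjamini-Hochberg adjustment over all genes with at least 1 read, in Python 3.11.15 with numpy 2.4.6, pandas 2.3.3, scipy 1.17.1 and matplotlib 3.10.9. Log2 ratios used a prior count of 2, and intervals are 95% Clopper-Pearson intervals of the counts. Differences between models used an exact conditional odds-ratio test. The tests were checked on simulated data with 200 changed genes. For corn oil over CD, a comparison added after the data were seen, all 6 libraries were scaled together. The members and 17 lists of other genes, 134 in all, were chosen with earlier results of these data known. Other lists are given by counts and sums. The text names all 10 members, list genes called in the comparison described for endothelial and signalling lists, some genes of the VEGF, angiopoietin and endoglin lists, the most abundant gene of a list, and the 5 genes nearest in profile. Some called genes of the stellate cell and bile duct lists are named as well.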

Additional observations from a re-analysis of the deposited data

Results flagged for a closer look

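The change from control to injury differed between the CCl4 and diet models for 8 of the 10 genes, past an adjusted p of 0.001 in an exact odds-ratio test that 23.1% of 17893 genes also passed, and the difference in log2 ratio was -0.70 for Pecam1, -0.93 for Kdr, -0.64 for Eng and -0.53 for Stab1. It was -0.80 for Stab2, -1.35 for Lyve1, -0.85 for Clec4g and -0.73 for Fcgr2b. All 8 were lower in the CCl4 model, and 2 of them, Eng and Lyve1, were past the test with the rest of the pooled column in place of the CCl4 library. Lyve1 had the largest difference: it rose in HFD over CD and had a ratio near 0 with CCl4. The JT003 libraries differed between models for Stab1, by 0.51, and for Stab2, by 0.83, which were higher against CCl4 than against HFD. This is 2 of 10 where 16.2% of all genes passed, and with the rest it was not seen, at -0.19 for Stab1 and 0.05 for Stab2. Each model is 1 library per condition, the CCl4 library enters every difference, and the cause was not tested.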

How the results depend on the processing

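Of 114 results that answer the comparisons, 86 kept their value under the alternative settings and 28 moved. Of 240 values of single genes, 222 stayed, 4 were weaker and 14 changed sign.

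An assumed coefficient of variation between mice left no marker called in the comparisons where the main test called any, corn oil over CD not being run. In HFD over CD 0 genes were called at a coefficient of 0.2, with 1 of p under 0.05, and 0 at 0.4. In CCl4 over corn oil 0 were called at 0.2, with 4 of p under 0.05, and 0 at 0.4, in place of 2. A log2 threshold of 0.5 gave 1 call in HFD plus JT003 over HFD, 8 in CCl4 over corn oil, 5 in CCl4 plus JT003 over CCl4, 2 in HFD plus JT003 over CD and 1 in CCl4 plus JT003 over corn oil.

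The source of the CCl4 values moved the results of the CCl4 model. With the pooled column or its rest, 0 genes were called in CCl4 over corn oil, and the median was -0.27 or -0.12 in place of -0.75. The median of CCl4 plus JT003 over CCl4 was 0.11 or -0.032 in place of 0.59. The change of the scavenger ratio was 0.40 or 0.44 with CCl4, in place of 0.26, and 0.19 or 0.15 with JT003, in place of 0.33. Differences between models were past the test for 2 genes with the rest in place of 8, and for JT003 for 4 in place of 2. Those 4 were Kdr, Cdh5, Fcgr2b and Eng, at -0.64, -0.59, -0.46 and -0.32, while Stab1 moved from 0.51 to -0.19 and Stab2 from 0.83 to 0.05, so the JT003 difference of both was lost. Signs turned with the rest for Cdh5 at 0.18, Stab1 at 0.20 and Stab2 at 0.11 in CCl4 over corn oil, and with the pooled column for Stab1 at 0.013. In CCl4 plus JT003 over CCl4 they turned with the pooled column for Pecam1 at -0.25 and Cdh5 at -0.18. With the rest they turned for Pecam1 at -0.45, Cdh5 at -0.38, Tek at -0.13, Kdr at -0.044 and Eng at -0.021.

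With total counts the signs of Pecam1, Cdh5 and Clec4g turned in HFD over CD, at 0.0080, 0.076 and 0.065. The median of CCl4 plus JT003 over corn oil was -0.021 with total counts, where all genes had 0.32, and -0.013 and -0.018 with FPKM and pseudocounts of 1 and 0.1, in place of -0.32. With FPKM and a pseudocount of 1 the median of CCl4 over corn oil was -0.42. As a difference of mean log2 ratios, the change of the scavenger ratio was 0.47 in HFD over CD in place of 0.34, and 0.076 in CCl4 plus JT003 over CCl4. With FPKM sums it was -0.020 in HFD plus JT003 over HFD in place of -0.18. It was also smaller than with counts in CCl4 over corn oil, where the ratio of FPKM sums went from 1.73 to 1.89.

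The pooled column and its rest over corn oil, the scalings of the differences between models, the list genes with the rest and the signs with total counts in the JT003 libraries over controls were chosen after the data were seen. No paired analysis was possible because each condition had 1 library and the labels link no libraries by mouse. The number of mice behind a library is not stated, and differences between mice cannot be told apart from those of treatment. Intervals show counting error and not variation between mice, and where a call rests on the CCl4 library alone, the cause was not tested.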
